A study of Homo sapiens with 6 samples.

Results

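Genes named LINC followed by a number are long intergenic noncoding RNAs that have no functional name in the annotation used. Genes were taken as members when the name the authors assigned to a peak was exactly LINC and digits, whatever the values of the peak. This gave 253 of the 16810 genes with a peak in at least 1 of the deposited peak lists. They held 408 of 41838 peaks after FB23-2 and 442 of 42813 peaks after DMSO. The data come from methylated RNA immunoprecipitation sequencing of MHCC97H, a human hepatocellular carcinoma cell line. Cells received 2 µM FB23-2, an inhibitor of the m6A demethylase FTO, or the vehicle DMSO, each for 48 h, with 3 samples per treatment. Poly(A) RNA was fragmented, fragments carrying N6-methyladenosine (m6A) were pulled down with an antibody, and pulled-down and input RNA were sequenced. The tables analysed here give 1 peak list per treatment with no value per sample, so differences between the lists have no replicate check and no test, and read depth is unknown. Everything comes from 1 cell line.

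m6A is a methyl mark on internal adenosines of RNA, written by a METTL3 and METTL14 complex, removed by FTO and ALKBH5, and read by proteins that act on RNA decay, translation and splicing. In messenger RNAs it is known to gather near stop codons and in the 3′ untranslated region, landmarks that a noncoding RNA lacks. Many LINC RNAs are spliced, polyadenylated and expressed at low levels, several are named in liver cancer, and few have a known mechanism. A peak here is a stretch in which the authors found pulled-down RNA above input, so a gene needs both RNA and m6A to appear. A gene without a peak was not shown to be silent or unmethylated.

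As a check of the label, 4 of 18 hepatocyte marker genes had a peak after FB23-2 and 3 of 18 after DMSO. Of 7 liver cancer or progenitor markers, 5 had one after FB23-2 and 4 after DMSO, among them KRT8 and KRT18. ALB, APOA1 and AFP had no peak in these lists. Of 8 fibroblast or stellate cell markers, 8 had a peak in both lists (24 FB23-2 peaks and 33 DMSO peaks). Endothelial markers had a peak for 1 of 6 in each list, and leukocyte markers for 3 of 7 after FB23-2 and 4 of 7 after DMSO. Peaks count methylated RNA and not expression level, and the part of other cell types in the results was not tested.

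A small group of members carried a peak over a RefSeq transcription start in both treatments. The first bases from such starts are printed to show what those peaks cover. A RefSeq start can lie inside the gene interval that the authors used, which sets the gene start elsewhere in this text. For LINC02593 it is base 919692, against a gene start of 921016 on the minus strand. For LINC00847 it is base 180830957, against 180830326 on the plus strand. RefSeq (GRCh38.p14) gave 172 transcription starts for 161 of the 253 members. A peak covered the whole of the first 50 bases in 15 members after FB23-2 and in 19 after DMSO. In 13 members it did so in both lists. Covered starts of other genes were not counted, so whether these counts are high or low is not known. The peaks over those 13 starts had log2 folds of 2.35 to 5.03 (median 2.95) after FB23-2 and of 2.16 to 4.81 (median 3.19) after DMSO. LINC00667 (chr18:5238100-5238149, plus strand), LINC00482 (chr17:81309199-81309248, minus strand), LINC02593 (chr1:919643-919692, minus strand), LINC00205 (chr21:45288052-45288101, plus strand) and LINC00847 (chr5:180830957-180831006, plus strand) are shown in the sense of the RNA, 5′ to 3′. Capitals mark GGAC, the letters at the core of the sequence that the m6A writer prefers, searched on the transcribed strand only.
LINC00667: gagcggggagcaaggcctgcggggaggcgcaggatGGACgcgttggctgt
LINC00482: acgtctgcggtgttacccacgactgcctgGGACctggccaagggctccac
LINC02593: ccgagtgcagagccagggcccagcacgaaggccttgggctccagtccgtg
LINC00205: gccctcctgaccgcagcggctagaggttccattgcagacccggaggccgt
LINC00847: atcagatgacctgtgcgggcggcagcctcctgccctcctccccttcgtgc

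LINC00667 and LINC00482 were the 2 of the 13 starts (15.4%) with GGAC in this window. The letters stood in 32 of all 172 member starts (18.6%) and in 6632 of 35116 RefSeq starts of any gene (18.9%). These shares lie close together, and they say nothing about the bases of a peak beyond the window. Over its RefSeq start LINC00667 had a peak with a log2 fold of 4.11 after FB23-2 and 4.01 after DMSO. LINC02593 had 5.03 after FB23-2 and 4.81 after DMSO, and LINC00482 had 4.04 after FB23-2 and 3.21 after DMSO. These folds are the authors' own value for each peak, read as pulled-down over input. They come from separately made lists and describe each list, so a pair of them shows no change between treatments.

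Most LINC genes had m6A peaks under both treatments. Of the 253 genes, 195 (77.1%, exact 95% interval 71.4 to 82.1) had a peak in both lists. This was a smaller share than the 91.3% of all 16810 genes. A further 28 (11.1%, 7.48 to 15.6) had peaks in the FB23-2 list only, where 3.88% of all 16810 genes did. The 30 genes with peaks in the DMSO list only made 11.9% (8.15 to 16.5), where 4.8% of all genes did. Both shares of LINC genes lay above those of all genes. So did those of antisense RNA genes, named with -AS and a number, at 6.84% for FB23-2 only and 8.05% for DMSO only. Protein coding genes had 1.76% and 2.40%. LINC genes also had fewer peaks each than all genes. Of LINC genes with a peak, 63.7% had exactly 1 after FB23-2 and 59.6% after DMSO, against 36.1% and 35.8% of all genes with a peak in the same lists. Antisense RNA genes were close to LINC genes here, with 59.1% after FB23-2 and 58.3% after DMSO. Protein coding genes had 25.1% and 24.9%. Among genes with at most 1 peak in either list, 16.3% of 147 LINC genes (10.7 to 23.3) were in the FB23-2 list only, against 10.9% of 5344 genes. For the DMSO list the shares were 17.7% of LINC genes (11.9 to 24.8) and 12.9% of all genes. In this class the shares of all genes lay inside the intervals of the LINC genes. Where the larger peak count of a gene was 2, 6.52% of 46 LINC genes (1.37 to 17.9) were FB23-2 only, against 1.61% of 3660 genes. The DMSO-only shares were 2.17% of LINC genes (0.055 to 11.5) and 2.46% of all genes. Here too the shares of all genes lay inside the LINC intervals. Among genes with 3 or more peaks in a list, 1 of 60 LINC genes was in the FB23-2 list only (1.67%, 0.0422 to 8.94), against 0.154% of 7806 genes, and 3 were in the DMSO list only (5.0%, 1.04 to 13.9), against 0.359% of all genes. There the DMSO-only share of all genes lay below the LINC interval.

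Counted by peak, LINC RNAs lay closer to the rest of the lists. Peaks of the 2 lists counted as shared if they overlapped, strand included, over 50% or more of the shorter one; the rest were list-only. After FB23-2, 78 of 408 LINC peaks (19.1%, 15.4 to 23.3) were list-only, beside 17.3% of all FB23-2 peaks. After DMSO, 108 of 442 (24.4%, 20.5 to 28.7) were list-only, beside 20.1% of all DMSO peaks. The background lay inside the FB23-2 interval and just below the DMSO interval. These intervals treat peaks as independent, although many share a gene. LINC00662 alone held 20 of the DMSO peaks, 7 of them list-only, so the small DMSO difference from all peaks is uncertain. Antisense RNA genes had 17.5% list-only peaks after FB23-2 and 22.6% after DMSO. Small nucleolar RNA host genes had 20.0% of 50 peaks after FB23-2 and 18.4% of 49 after DMSO. Of the list-only LINC peaks, 75 after FB23-2 and 103 after DMSO touched no base of a peak in the other list. They made 18.4% of FB23-2 and 23.3% of DMSO LINC peaks, against 16.0% and 18.9% of all peaks in the same lists. Of the shared LINC peaks, 36 had exactly the same ends in both lists, a count that was not made for all peaks.

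Whether a LINC peak was shared went with its p-value. Each of the 24 FB23-2 and 23 DMSO LINC peaks with p written as 0 was shared, as was each of the 62 FB23-2 and 69 DMSO LINC peaks with another p under 1e-50. Nearly all peaks of any gene were shared in these ranges, 99.98% of FB23-2 and 99.57% of DMSO peaks at p written as 0, and 99.1% and 98.5% at other p under 1e-50. Between 1e-20 and 1e-10, 77.4% of 84 FB23-2 LINC peaks (67.0 to 85.8) and 78.4% of 102 DMSO LINC peaks (69.2 to 86.0) were shared, against 86.5% of FB23-2 and 85.8% of DMSO peaks of all genes. At p of 1e-5 and above the shares were 52.7% of 74 FB23-2 LINC peaks and 41.6% of 89 DMSO LINC peaks, against 51.4% and 45.9% of all peaks in the same lists. Only the FB23-2 interval between 1e-20 and 1e-10 left out the share of all peaks. LINC peaks were less significant as a group, with a median p of 3.76e-14 after FB23-2 and 1.25e-12 after DMSO, where all peaks had 3.56e-18 and 4e-17.

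**Figure D1:**
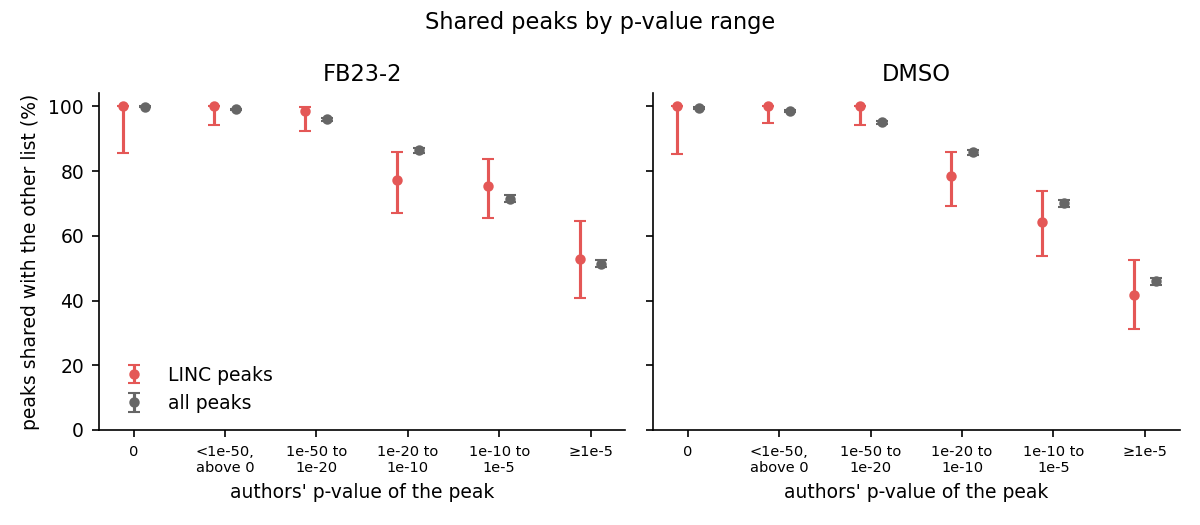
Share of peaks shared with the other list (y axis, percent) by the authors' p-value of the peak (x axis), for LINC peaks (red) and all peaks (grey), with exact 95% intervals; FB23-2 list left, DMSO list right. The share is 100% for LINC peaks with p written as 0 and falls to 52.7% after FB23-2 and 41.6% after DMSO at p of 1e-5 and above.

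LINC peaks had high folds beside those of all peaks. The median log2 fold was 2.52 after FB23-2 (2.34 to 2.68) and 2.35 after DMSO (2.18 to 2.50), against 1.42 and 1.39 for all peaks of the same lists. Antisense RNA genes lay between, with 2.09 after FB23-2 and 2.00 after DMSO. Protein coding genes had 1.35 after FB23-2 and 1.33 after DMSO, and small nucleolar RNA host genes 1.31 and 1.35. A log2 fold of at least 2, which is 4-fold, was reached by 253 LINC peaks after FB23-2 (62.0%, 57.1 to 66.7), beside 30.4% of all FB23-2 peaks. After DMSO 261 reached it (59.0%, 54.3 to 63.7), beside 29.2% of all DMSO peaks. The LINC intervals did not include the background in either list. The median span of LINC peaks was 824.5 bases after FB23-2 (625 to 975) and 687.5 after DMSO (550 to 825), against 575 for all peaks in each list, a value inside the DMSO interval. Antisense RNA genes had 750 after FB23-2 and 725 after DMSO. A span counts any intron between the ends of a peak.

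**Figure D2:**
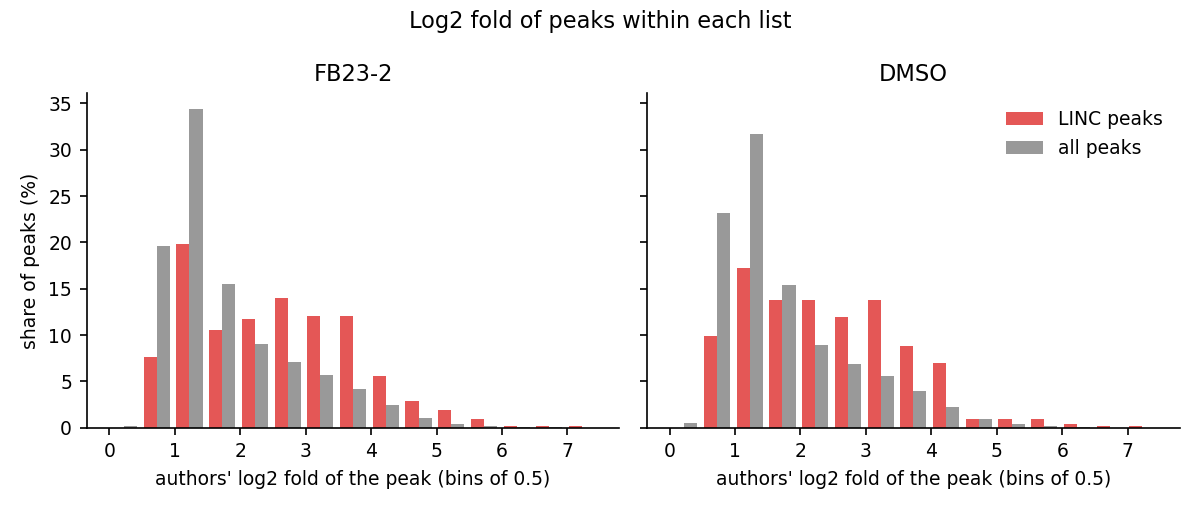
Distribution of the authors' log2 fold per peak (x axis, bins of 0.5) as a share of peaks (y axis, percent) for LINC peaks (red) and all peaks (grey); FB23-2 list left, DMSO list right. LINC peaks have medians of 2.52 after FB23-2 and 2.35 after DMSO and sit to the right of all peaks, whose medians are 1.42 and 1.39.

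List-only LINC peaks were weaker and shorter than shared ones within each list. After FB23-2 their median log2 fold was 1.66 over 275 bases, against 2.60 over 983.5 bases for shared peaks. After DMSO it was 1.53 over 250 bases, against 2.54 over 1050 bases. The 33 peaks of the FB23-2-only genes had a median log2 fold of 3.07 (1.63 to 4.13) over 350 bases, and the 38 peaks of the DMSO-only genes 2.28 (1.47 to 2.95) over 325 bases. Both intervals held the median of all list-only LINC peaks of their list, which include these peaks. They also held the median log2 fold of LINC peaks in genes with both lists, 2.49 after FB23-2 and 2.37 after DMSO. The median p-value was 3.65e-09 for peaks of FB23-2-only genes and 7.25e-09 for those of DMSO-only genes. Both were weaker than for peaks in genes with both lists (1.67e-16 after FB23-2 and 2.74e-14 after DMSO).

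**Figure D3:**
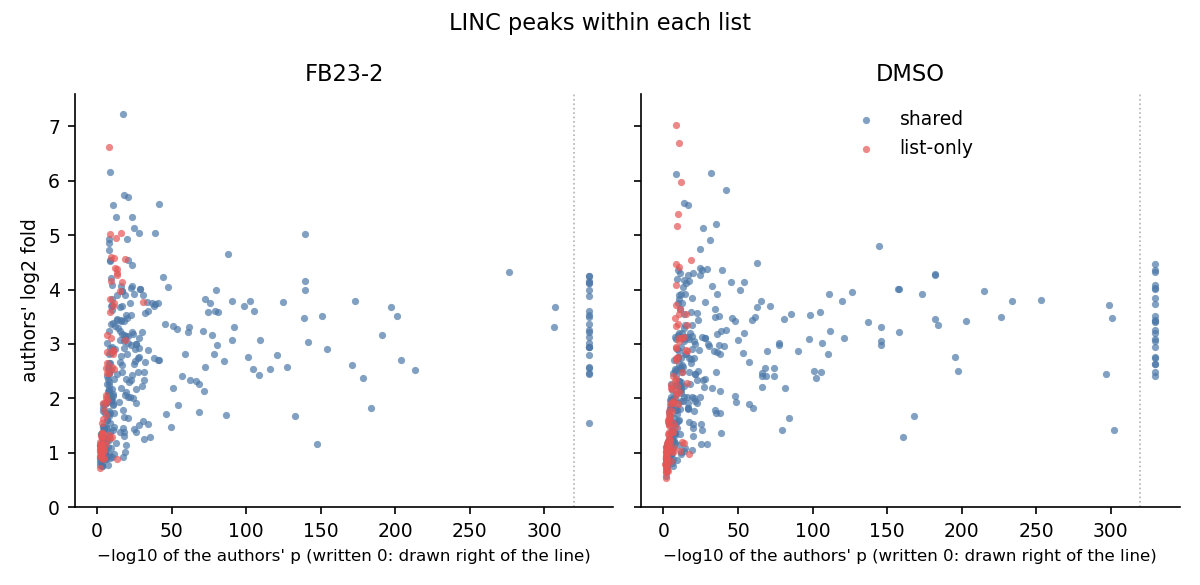
Each point is 1 LINC peak, by −log10 of the authors' p (x axis; p written as 0 is drawn right of the dotted line) and the authors' log2 fold (y axis); FB23-2 list left, DMSO list right, shared peaks blue and list-only peaks red. List-only peaks gather at the left edge, while the 24 FB23-2 and 23 DMSO peaks with p written as 0 are all shared.

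The LINC RNAs described next were chosen for the most significant FB23-2 peaks that were shared, so their presence in both lists was fixed by the choice. LINC01560, on chromosome X, is a short gene of 1253 bases that was covered almost whole by 1 peak of 1250 bases with identical ends under both treatments, of log2 fold 4.25 after FB23-2 and 4.37 after DMSO. LINC00847 on chromosome 5 had 2 peaks per list. The first began at the gene start, had identical ends, and had a log2 fold of 3.88 after FB23-2 and 4.03 after DMSO. The second, 3874 bases downstream, had 4.25 after FB23-2 and 4.32 after DMSO. All of these had a p written as 0. LINC00942 on chromosome 12 had 1 peak per list, with 3.60 after FB23-2 and 3.84 after DMSO. LINC01137, which RefSeq now calls LITATS1, an RNA reported to dampen TGF-beta signalling, had 1 peak per list that spanned 121984 bases after FB23-2 and 121959 after DMSO. Such a span is nearly the whole gene of 123478 bases and includes introns. Its log2 fold was 3.98 after FB23-2 and 4.09 after DMSO.

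The highest folds of shared FB23-2 peaks belonged to other genes, at less extreme p-values. LINC01010 on chromosome 6 had a log2 fold of 7.21 after FB23-2 (p 4.66e-18), in a peak of 925 bases that ended 568 bases before the gene end. After DMSO the same stretch was split into 2 peaks, of 5.12 and 3.91. LINC00494 on chromosome 20 had a peak at the gene end with 6.15 after FB23-2 and 4.37 after DMSO. LINC02348 on chromosome 15 had its 2 FB23-2 peaks, of 3.24 and 5.71, inside 1 DMSO peak of 3334 bases with 3.80. LINC00639 on chromosome 14 had 5.57 after FB23-2 over 39094 bases and 6.15 after DMSO over 39044 bases. Of these genes, LINC00494, LINC02348 and LINC00639 also had list-only peaks, all after DMSO.

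Among the 195 genes with peaks in both lists, 134 (68.7%, 61.7 to 75.2) had only shared peaks, against 52.2% of 15351 genes of any kind with peaks in both. At least 1 FB23-2-only peak stood in 34 of the 195 (17.4%, against 29.6% of all), at least 1 DMSO-only peak in 42 (21.5%, against 32.7%), and both kinds in 15 (7.69%, against 14.5%). These shares were not adjusted for the smaller number of peaks per LINC gene. Only 3 genes (1.54%, against 0.697% of all) had peaks in both lists and none shared. The number of peaks was equal in 129 genes (66.2%, against 52.2%), higher after FB23-2 in 25 (12.8%, against 22.7%) and lower after FB23-2 in 41 (21.03%, against 25.1%). List-only peaks fell in 62 of 223 LINC genes of the FB23-2 list (27.8%, against 32.1% of all genes), and in 72 of 225 of the DMSO list (32.0%, against 35.8%).

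LINC00662, an RNA of chromosome 19 reported in liver cancer, had the most peaks of any member, 13 after FB23-2 and 20 after DMSO. Its strongest stretch by p-value lay close to the gene start, with a log2 fold of 2.90 after FB23-2 (p 7.8e-155) and 2.98 after DMSO (p 1.86e-146). All but 2 of the others crowded into a stretch that lay 61111 to 78354 bases from the start. Just 1 of its FB23-2 peaks was list-only, with a log2 fold of 1.70, and that one overlapped a DMSO peak by less than 50%. Of its DMSO peaks, 7 were list-only. The most enriched of these stood alone, 95480 bases from the gene start (3.35, p 3.16e-16) and 19661 bases from it (2.89, p 1.42e-15), where the FB23-2 list had none. The other 5 lay in or at the edge of the crowded stretch, with log2 folds of 0.93 to 2.22. The counts depend on the setting: with equal numbers of top-ranked peaks taken from each list 4 DMSO-only peaks were left. With an adjusted p under 0.001 in both lists 3 FB23-2 peaks were list-only, and with a log2 fold of at least 2 there were 2.

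LINC00511 on chromosome 17, also reported in liver cancer, was the reverse case. Its main peak spanned 17991 bases after FB23-2 and 17966 after DMSO, from the same base, with log2 folds of 4.32 and 4.28. The FB23-2 list held 3 more peaks, with 3.70 (p 1.21e-11) 47959 bases from the gene start, 4.15 (p 1.01e-09) 210115 bases from it and 1.31 (p 0.00234) close to the main peak. The DMSO list held none of these.

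LINC00472 on chromosome 6 had 9 FB23-2 peaks, 3 of them list-only, and 10 DMSO peaks, 4 of them list-only. All list-only peaks of this gene were weak, with log2 folds of 0.90 to 1.10 after FB23-2 and 0.75 to 1.06 after DMSO. With an adjusted p under 0.001 required in both lists, 1 DMSO-only peak was left. The gene hosts the hairpins of MIR30A and MIR30C2, whose mature RNAs are printed because they are the products known from this locus. Both 5p strands carry the same seed (bases 2 to 8, in capitals), while the 3p strands differ.
hsa-miR-30a-5p: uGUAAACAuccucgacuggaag
hsa-miR-30c-5p: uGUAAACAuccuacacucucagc
hsa-miR-30a-3p: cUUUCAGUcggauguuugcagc
hsa-miR-30c-2-3p: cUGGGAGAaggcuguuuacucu

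No peak of either list overlapped these hairpins. The nearest FB23-2 peak lay 2797 bases from the MIR30C2 hairpin. The nearest DMSO peak was a DMSO-only peak 208 bases from it, with a log2 fold of 0.92 and p of 0.0166. For MIR30A the distance was 4398 bases in both lists. LINC01138, the other member with a hairpin inside its interval (MIR5087), had no peak over it either.

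LINC01278 on chromosome X had 6 FB23-2 peaks, 2 of them list-only, and 9 DMSO peaks, 5 of them list-only. A DMSO-only peak 249072 bases from its start had a log2 fold of 5.98 (p 1.16e-12), while the other 4 had 0.85 to 1.08. No other peak of the gene in either list was above 1.29. Counts could also differ through how a stretch was divided. LINC01128 on chromosome 1 had 5 FB23-2 peaks and 10 DMSO peaks, yet 1 FB23-2 peak of 3300 bases (3.48) overlapped 5 DMSO peaks (1.92 to 4.14). LINC01184, which RefSeq names SLC12A2-DT, had 9 FB23-2 peaks and 5 DMSO peaks. There 1 DMSO peak of 32903 bases matched 4 FB23-2 peaks. In all, 27 FB23-2 peaks and 24 DMSO peaks of LINC genes were shared with more than 1 partner.

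**Figure D4:**
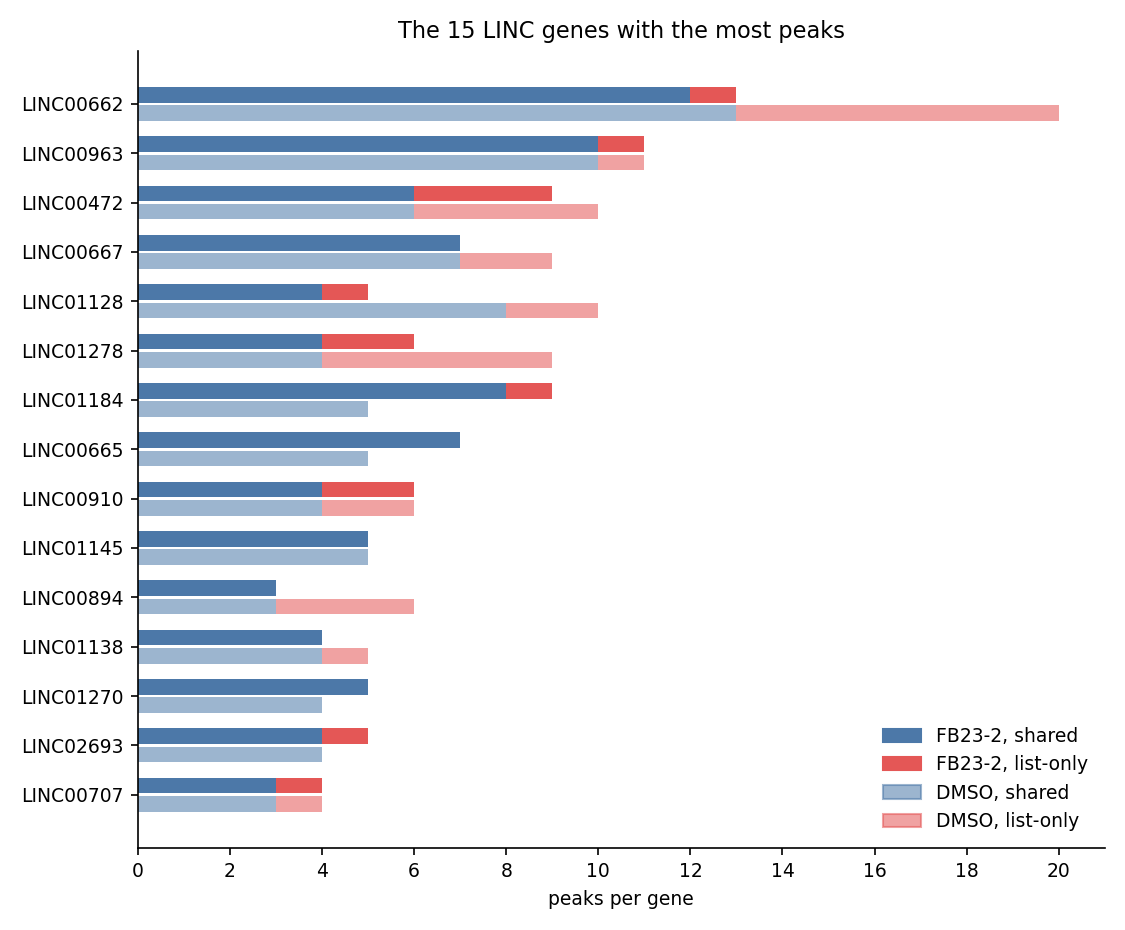
Peaks per gene (x axis) for the 15 LINC genes with the most peaks over both lists; the FB23-2 bar (full colour) is above the DMSO bar (pale), with shared peaks blue and list-only peaks red. LINC00662 has 13 FB23-2 and 20 DMSO peaks, with 1 and 7 list-only, while LINC01184 has 9 FB23-2 and 5 DMSO peaks.

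Of 22 LINC RNAs reported in hepatocellular carcinoma, 9 had a peak. All 9 had one in each list, as did 91.3% of all genes with a peak. They held 37 FB23-2 peaks, 6 of them list-only (16.2%), and 42 DMSO peaks, 10 of them list-only (23.8%), near the 17.3% of all FB23-2 peaks and 20.1% of all DMSO peaks. LINC00662 and LINC00511 are described above. LINC00958, reported to carry m6A and to act on lipid synthesis in this cancer, had its main peak at the gene end, of log2 fold 2.94 under both treatments, over 20577 bases after FB23-2 and 20627 after DMSO. A further FB23-2 peak over its gene start had 1.30 (p 0.000259) and no DMSO partner.

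LINC00205 on chromosome 21 had 1 FB23-2 peak of 9488 bases with 4.15, which the DMSO list gave as 2 peaks of 4.48 and 3.43. LINC00665 on chromosome 19, reported to encode a micropeptide, had 7 FB23-2 peaks and 5 DMSO peaks, all shared. Its most significant FB23-2 peaks, of 1.82 and 2.51, together matched 1 DMSO peak of 2.41. In both genes each peak had a partner, and the lists differed in the borders of the peaks.

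LINC01018, a liver-expressed RNA, had 1 peak of 6896 bases with identical ends, of 2.55 after FB23-2 and 2.45 after DMSO. LINC00324 had 3.24 after FB23-2 and 3.35 after DMSO at its gene end. LINC01138, reported to bind the arginine methyltransferase PRMT5, had 4 FB23-2 peaks, all shared, and 5 DMSO peaks, 1 of them list-only (3.55, p 2.24e-11). LINC00467, the other member reported to encode a small protein, had 3 FB23-2 peaks, 1 of them list-only, and 4 DMSO peaks, 2 of them list-only. Its most significant peak had 1.43 after FB23-2 and 2.04 after DMSO.

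**Figure D5:**
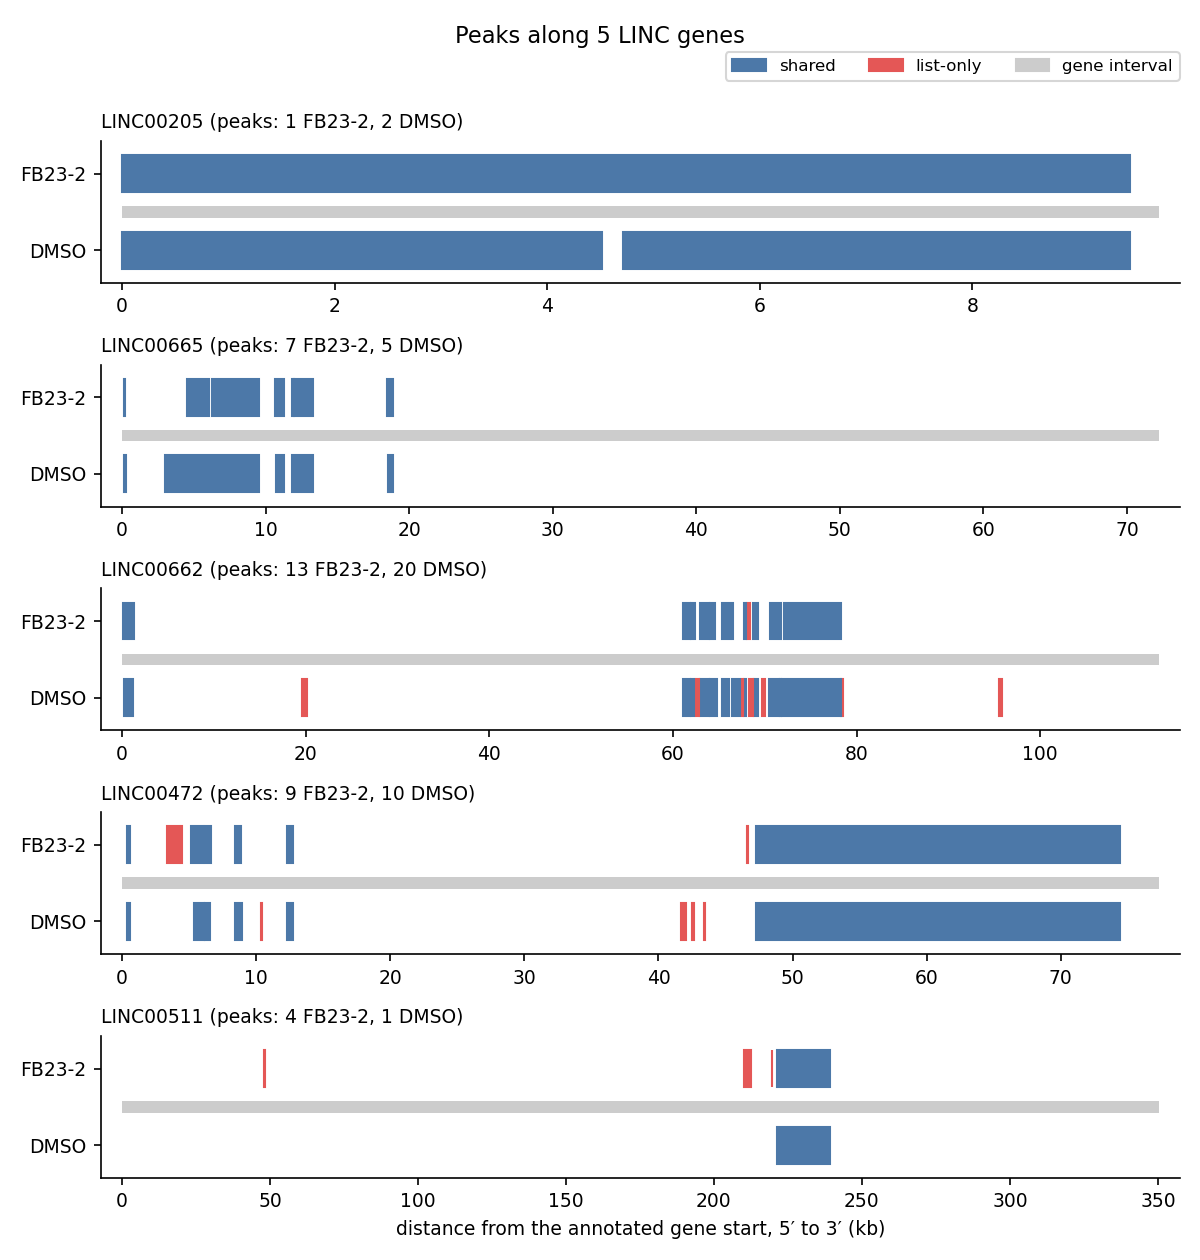
Peaks along 5 LINC genes, by distance from the annotated gene start in the direction of transcription (x axis, kb; a different scale for each gene), with FB23-2 peaks above and DMSO peaks below the gene interval (grey); shared peaks are blue and list-only peaks red, and bars are to scale with an outline 1 point wide. LINC00205 and LINC00665 hold only shared peaks, LINC00662 has 7 DMSO-only peaks and LINC00511 has 3 FB23-2-only peaks.

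Of the 28 genes with peaks in the FB23-2 list only, 24 had 1 peak. LINC02728 on chromosome 11 had the most significant one, with a log2 fold of 3.78 (p 1.24e-31), 100 bases before its gene end. It was the single LINC peak with p under 1e-20 that lacked a partner in the other list. LINC00242 followed with 4.55 (p 1.11e-19) and LINC01036 with 3.07 (p 2.53e-19) over 31991 bases. LINC02062, which RefSeq names CHD1-DT for its divergent start beside CHD1, had 2 peaks, of 6.62 (p 1.81e-08) and 4.13 (p 2.08e-17). LINC01686 had 5.03 (p 1.08e-16) and LINC02518 4.37 (p 2.89e-14). LINC00668 had 3 peaks, of 0.93 to 1.15, and none of them passed an adjusted p of 0.001. LINC01764 had 1 peak of 3.97 (p 5.52e-16), which overlapped by 466 bases a peak of UCA1 on the opposite strand with 2.56. UCA1 is a long noncoding RNA first known from bladder cancer.

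Of the 30 genes with peaks in the DMSO list only, 26 had 1 peak. LINC02607 on chromosome 1 had 2, the stronger with a log2 fold of 4.55 (p 3.36e-19). LINC01132 on chromosome 1 had 3 peaks close together, of 3.33, 2.88 and 2.49, and LINC00886 on chromosome 3 had 3, of 3.12, 1.72 and 1.11. LINC02035 had 4, of 1.02 to 1.39. LINC02371 on chromosome 12 had 1 peak at its gene end, with 6.69 (p 5.18e-11). LINC02481 had 3.10 (p 2.78e-13) and LINC02806 3.64 (p 6.6e-12). LINC00571 had 1.18 (p 1.79e-14) over 207089 bases, which took in 199 bases of an opposite-strand DMSO peak of UFM1, the gene of a ubiquitin-like modifier, with 1.03. None of the single-list genes, 28 after FB23-2 and 30 after DMSO, had a peak that was shared with a peak of another gene. In 2 of the 28 and 2 of the 30 the other list held a same-strand peak of another gene within the gene interval. For LINC00598 and LINC00618, both FB23-2 only, the DMSO peaks belonged to FOXO1, the gene of a transcription factor, and VRK1, the gene of a kinase.

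By midpoint, LINC peaks lay less often in the last 10% of the gene than peaks of all genes. The authors classed 407 of 408 FB23-2 peaks and 441 of 442 DMSO peaks as exons of noncoding RNA. The remaining peak of each list was in a 3′ untranslated region of LINC00634, which RefSeq names SMIM45 and holds to be protein coding. The midpoint lay in the last 10% of the gene interval for 23.5% of FB23-2 LINC peaks (19.5 to 28.0) and 22.2% of DMSO LINC peaks (18.4 to 26.3), against 40.7% and 40.8% of all peaks in the same lists. The first 10% held 11.0% of FB23-2 LINC peaks (8.16 to 14.5) and 11.5% of DMSO LINC peaks (8.71 to 14.9), against 8.57% and 8.15% of all peaks. Peaks that began exactly at the gene start numbered 20 after FB23-2 (4.90%, 3.02 to 7.47), beside 4.11% of all FB23-2 peaks. After DMSO they numbered 24 (5.43%, 3.51 to 7.97), beside 3.76% of all DMSO peaks. Antisense RNA genes had 10.3% after FB23-2 and 8.97% after DMSO. Peaks that ended exactly at the gene end numbered 61 after FB23-2 (14.95%, 11.6 to 18.8), beside 17.5% of all FB23-2 peaks. After DMSO they numbered 67 (15.2%, 11.9 to 18.8), beside 17.8% of all DMSO peaks. Antisense RNA genes had 14.1% after FB23-2 and 13.6% after DMSO at the gene end. For the exact gene start and gene end, the LINC intervals held the shares of all peaks in both lists.

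Some LINC peaks lay on top of a peak from the other strand of the same list. This held for 43 FB23-2 LINC peaks in 31 genes (10.5%, 7.73 to 13.9), beside 12.7% of all FB23-2 peaks, and for 49 DMSO LINC peaks in 37 genes (11.1%, 8.31 to 14.4), beside 13.2% of all DMSO peaks. The LINC peak over the start of LINC00847 shared 1225 bases with a peak of HEIH, a noncoding RNA described in liver cancer, in both lists; HEIH had 4.13 after FB23-2 and 4.22 after DMSO. LINC00602 overlapped PDE10A, a phosphodiesterase gene, by 528 bases in both lists. LINC01270 and LINC01271 are both members and overlapped each other in both lists. Their strongest overlapping peaks had 3.02 and 3.21 after FB23-2, and 2.77 and 3.05 after DMSO. Whether the libraries kept strand is not given in the sources used here, so for these pairs the gene that the reads came from cannot be told apart.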

How the data were processed

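The labels describe 3 FB23-2 and 3 DMSO samples of MHCC97H cells. HISAT2, Cuffdiff and GRCh38 are named in the submitters' processing notes. The peak caller is not given in the sources used here, nor is strandedness. The deposited files are 1 peak list per treatment. Per the file headers the authors gave each peak its log2 fold change, p-value, adjusted p-value, annotation class and gene. The columns name no sample.

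Deposited starts count from 0 (5528 FB23-2 and 5661 DMSO peaks lie 1 base below their gene start and 0 equal it) and are printed 1-based. Overlaps used bedtools 2.31.1 on all peaks; the overlap step was tested on simulated data. Shares have exact Clopper-Pearson 95% intervals and medians exact order-statistic ones. These cover counting only, since read depth is unknown, and intervals over peaks treat peaks of the same gene as independent. No test between treatments was possible. Names, biotypes and sequences came from RefSeq tables for GRCh38.p14, which matched 230 members by symbol and 20 by an older symbol. Python 3.11.15, pandas 2.3.3, numpy 2.4.6, scipy 1.17.1 and matplotlib 3.10.9 were used.

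Members, gene lists and markers were chosen with earlier results of these data known. Genes named in the text were, among LINC genes, the 8 single-list genes per list with the most significant peak, the 8 with the highest fold and the 8 with the most significant shared FB23-2 peak, the 5 with the most peaks, the 5 per list with the most list-only peaks, and the 2 background lists (liver cancer, 22 genes; small proteins, 10 genes). LINC01184, LINC00598, LINC00634, LINC00602, LINC01270, LINC01271 and the genes whose first bases are printed were chosen after their values were seen.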

Additional observations from a re-analysis of the deposited data

How the results depend on the processing

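The share of LINC peaks that were shared was 80.9% after FB23-2 and 75.6% after DMSO, with 78 and 108 list-only peaks. A reciprocal overlap of 50% gave 63.7% after FB23-2 (148 list-only) and 58.8% after DMSO (182 list-only); among all peaks 34.1% and 35.6% were then list-only. Peaks with a log2 fold of at least 2 gave 80.1% and 52 after DMSO (19.9% list-only, against 15.2% of all peaks). Equal numbers of top peaks gave 79.9% and 71 after DMSO (20.1% list-only, against 14.8%). An adjusted p under 0.001 in 1 list with any overlap in the other gave 81.7% and 71 after DMSO (18.3% list-only, against 13.7%). Each gene counted once by its most significant peak gave 84.8% after FB23-2 and 84.4% after DMSO, median log2 folds of 3.004 and 2.94, spans of 1175 and 1225 bases, and 20.6% and 24.0% at the gene end. The gene start then held 8.89% of DMSO peaks. A log2 fold of at least 2 put 8.43% of DMSO peaks at the gene start and 20.7% at the gene end, and an adjusted p under 0.001 gave a DMSO median log2 fold of 2.55. The causes were not tested, beyond fewer peaks entering by construction. Of the summary values over members, 22 moved and 52 stayed within their interval or within 1.5 times. Of the list-only counts of single genes, 32 moved and 112 stayed. Gene counts stayed within 1.5 times under all alternatives run for them. Single-list genes ranged from 24 to 30 after FB23-2 and from 26 to 35 after DMSO. Genes with peaks in both lists, 195 in the main setting, fell to 149 with a log2 fold of at least 2. They fell to 176 with equal numbers of top peaks, and rose to 287 when older and hyphenated LINC names counted too. Merging overlapping LINC peaks of both lists, an alternative chosen after seeing the data, gave 489 regions, of which 308 (63.0%) held peaks of both lists, 76 FB23-2 only and 105 DMSO only.

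No paired analysis was possible because the lists hold no values per sample. For the same reason leaving out a replicate was not run. Which peaks lie just under the authors' threshold cannot be seen, and read depth is unknown.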

Other observations

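By chromosome, the most members lay on chromosome 1 (38), followed by chromosome 2 (16) and chromosome 5 (15). RefSeq lists 237, 191 and 149 LINC genes on these chromosomes. Per 100 such genes this made 16.0 members on chromosome 1, 8.38 on chromosome 2 and 10.1 on chromosome 5. Chromosome 22 held 10 members (28.6 per 100, the highest rate), X 9 (21.4), chromosome 13 8 (5.23) and chromosome 4 5 (3.52). Chromosomes 8 and Y are not described here.

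The name LINC did not always fit the current annotation. RefSeq listed 230 members under the same symbol and 20 under a newer one. Of the renamed, 10 are divergent transcripts named for a neighbour (-DT), among them JUN-DT (LINC01135) and SLC12A2-DT (LINC01184), and 2 are antisense RNAs (-AS). RefSeq held 246 members to be long noncoding RNAs, 3 to be protein coding and 1 to be a transcribed pseudogene. The intervals of 44 members overlapped a protein coding gene on either strand. These include LINC00634 and LINC02804, where the gene is the member itself under its newer name, SMIM45 and GPR89B. Some others, such as LINC00106, overlapped only a gene model without a functional name. Counting genes with an older LINC symbol and LINC names with a hyphen as members too, 287 genes had peaks in both lists, 30 in the FB23-2 list only and 35 in the DMSO list only.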
